A study of Homo sapiens with 6 samples.

Results

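Long intergenic noncoding RNAs, whose symbols begin with LINC, and antisense RNAs, whose symbols end in -AS and a number after the gene they lie against, were examined in PC3-ML cells after inhibition of CDK4 and CDK6. Their members were the 1334 rows, called transcript clusters, of the array table whose only gene symbol in the array annotation had 1 of these 2 forms: 555 LINC clusters of 540 genes and 779 antisense clusters of 760 genes, out of 65535 rows analysed here. Every such row was kept. That total equals the row limit of older spreadsheet programs, so the table may be cut short, and clusters beyond it are not analysed here. The study used 6 Affymetrix human transcriptome arrays hybridised with labelled cDNA from PC3-ML, a subline of the PC-3 prostate cancer line that is used as a model of metastasis, grown in DMEM with serum. On 3 arrays the cells had received PD 0332991 at 500 nM in DMSO for 24 h, and on 3 they had received the DMSO vehicle for the same time. PD 0332991, or palbociclib, blocks the kinases CDK4 and CDK6, which act on the retinoblastoma protein, and the series title presents the treatment as a way to make that protein active again. Both groups come from 1 cell line, and whether a group's arrays stand for separate cultures is not in the labels, so the p-values measure the spread between these arrays, which may be technical.

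The epithelial markers KRT8, KRT18, KRT19, EPCAM and CDH1 had group means from 6.57 to 12.64 on PD 0332991 arrays and from 6.49 to 12.23 on DMSO arrays (log2 expression), while the 3 leukocyte, 2 fibroblast and 3 endothelial markers with a row lay between 3.81 and 4.51 on PD 0332991 arrays and between 3.85 and 4.44 on DMSO arrays. The prostate luminal genes KLK3 and KLK2 were as low, at 3.51 to 4.36 with PD 0332991 and 3.41 to 4.38 with DMSO. The treatment was visible in MKI67, the gene of the Ki-67 antigen found in dividing cells, which had 7.82, 7.72 and 7.86 on PD 0332991 arrays, against 12.28, 12.30 and 12.27 on DMSO arrays. Array medians over all clusters were 4.53, 4.56 and 4.48 with PD 0332991 and 4.50, 4.49 and 4.49 with DMSO.

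Long noncoding RNAs are transcribed like messenger RNAs but encode no known protein, and most are found at low levels. Some act on the gene they overlap or adjoin, by recruiting chromatin regulators or by pairing with its messenger RNA, and others bind proteins or small RNAs elsewhere in the cell. Antisense RNAs often start close to the promoter of their sense gene on the other strand, an arrangement in which both transcripts can share promoter sequence. Genes of S phase and mitosis are repressed by the retinoblastoma protein and its relatives through E2F sites and, in many mitotic genes, through the element called CHR, often beside CCAAT boxes bound by NF-Y.

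The promoter windows of 2 pairs and of 1 LINC gene are given as examples, chosen by their results. In the first pair both strands were lower with PD 0332991. In the second the sense gene fell and the antisense cluster did not pass the test. LINC00261 is the LINC cluster with the highest signal past the threshold. The windows run from 250 bases before to 50 bases after the transcript start in RefSeq (GRCh38.p14), 5′ to 3′ on the gene's own strand. Capitals mark matches, on either strand, to the E2F site (TTTCCCGC, TTTCGCGC, TTTGCCGC or TTTGGCGC), the CHR element (TTTGAA or TTTAAA) and the CCAAT box (CCAAT). The windows are PCNA-AS1 at chr20:5119336-5119635 (plus strand), PCNA at chr20:5126573-5126872 (minus strand), TMPO-AS1 at chr12:98516177-98516476 (minus strand), TMPO at chr12:98515323-98515622 (plus strand) and LINC00261 at chr20:22578593-22578892 (minus strand).
PCNA-AS1: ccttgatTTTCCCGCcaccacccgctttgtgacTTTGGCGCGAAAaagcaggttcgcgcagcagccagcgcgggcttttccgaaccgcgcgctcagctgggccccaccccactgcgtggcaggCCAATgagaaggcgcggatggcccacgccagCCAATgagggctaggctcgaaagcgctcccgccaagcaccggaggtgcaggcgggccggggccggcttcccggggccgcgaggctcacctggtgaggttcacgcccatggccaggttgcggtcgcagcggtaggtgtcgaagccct
PCNA: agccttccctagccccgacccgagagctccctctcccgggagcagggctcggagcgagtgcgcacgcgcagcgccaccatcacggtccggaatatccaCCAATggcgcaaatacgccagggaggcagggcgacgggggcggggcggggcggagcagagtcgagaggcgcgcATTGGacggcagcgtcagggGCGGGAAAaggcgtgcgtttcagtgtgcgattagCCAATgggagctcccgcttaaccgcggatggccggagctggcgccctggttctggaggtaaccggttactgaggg
TMPO-AS1: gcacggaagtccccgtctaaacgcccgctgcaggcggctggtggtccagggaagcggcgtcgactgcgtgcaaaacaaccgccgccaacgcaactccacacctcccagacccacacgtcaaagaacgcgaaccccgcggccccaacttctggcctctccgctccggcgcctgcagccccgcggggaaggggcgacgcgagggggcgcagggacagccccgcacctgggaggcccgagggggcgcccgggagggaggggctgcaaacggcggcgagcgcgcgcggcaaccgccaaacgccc
TMPO: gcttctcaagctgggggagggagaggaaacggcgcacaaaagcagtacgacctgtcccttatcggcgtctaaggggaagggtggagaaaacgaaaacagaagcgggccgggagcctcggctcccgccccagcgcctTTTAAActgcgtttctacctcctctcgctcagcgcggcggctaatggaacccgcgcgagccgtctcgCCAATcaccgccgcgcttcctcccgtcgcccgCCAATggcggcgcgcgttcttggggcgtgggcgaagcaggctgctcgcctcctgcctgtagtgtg
LINC00261: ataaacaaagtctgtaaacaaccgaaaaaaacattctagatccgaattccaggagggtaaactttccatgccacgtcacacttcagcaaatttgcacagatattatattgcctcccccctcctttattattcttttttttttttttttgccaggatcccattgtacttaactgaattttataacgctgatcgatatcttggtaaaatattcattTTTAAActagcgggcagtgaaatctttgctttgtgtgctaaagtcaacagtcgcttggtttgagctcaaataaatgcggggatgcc
The PCNA-AS1 window held 3 E2F matches, of which 2 overlap, and 2 CCAAT boxes; the PCNA window held 1 E2F match and 3 CCAAT boxes. The TMPO window held 1 CHR match and 2 CCAAT boxes and the TMPO-AS1 window held no match. Both transcripts start within 1 kb of each other, but their windows share 0 bases. By the positions above, TMPO-AS1 starts past the TMPO start in TMPO's direction of transcription. LINC00261 had 1 CHR match, part of a short AT-rich stretch. Of all 27305 promoter windows, 3.33% held an E2F match, 24.3% a CHR match and 35.7% a CCAAT box. Windows were listed for 358 LINC genes, of which 1.12% held an E2F match, 31.8% a CHR match and 36.0% a CCAAT box, and for 556 antisense genes, of which 2.88%, 22.8% and 33.1% held them. A match is a description of the letters, not of binding, and whether matches go with the changes was not tested.

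Few LINC or antisense clusters differed between the groups. In a limma fit over every row, with Benjamini-Hochberg adjustment over all 65535 and calls made below an adjusted p of 0.05, 2 of 555 LINC clusters passed (0.36%), 1 higher and 1 lower with PD 0332991, and 4 of 779 antisense clusters passed (0.513%), 3 higher and 1 lower. Among all rows, 2.26% passed, 0.835% higher and 1.43% lower, and of the rows with 1 gene symbol 4.35% passed, so both classes lay below either background. The words rose and fell are used here for rows past this threshold. Changes of the members were small: between the 5th and the 95th percentile the log2 change ran from -0.13 to 0.24 for LINC clusters and from -0.15 to 0.23 for antisense clusters, against -0.26 to 0.29 for all rows. At least 2-fold changes were seen in 1 of the 1334 members, a fall. Among the 65535 rows of the whole table, a far larger set, 280 falls and 27 rises were of that size. The median change was 0.04 for LINC clusters, 0.03 for antisense clusters and 0.02 for all rows.

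The spread between arrays was wider for the members than for named rows in general. The SD within groups had a median of 0.111 on the log2 scale for LINC clusters, 0.110 for antisense clusters, 0.115 for all rows and 0.0730 for the rows with 1 gene symbol, to which the members belong. The 95% interval of the change lay within 1 log2 unit of 0, a 2-fold change either way, for all 555 LINC clusters and for 775 of 779 antisense clusters, and within 0.5 for 512 LINC and 694 antisense clusters. Signal was low: the median of the members' mean over all arrays was 4.08 for LINC and 4.22 for antisense clusters (log2 expression), against 4.50 for all rows, and 27.0% of LINC and 38.3% of antisense clusters lay at or above the table's median. Signals of different clusters also depend on their probes and are not abundances. Only 18 LINC and 11 antisense clusters had a mean above 8. The array's background level is not given in the sources used here, so a low value cannot be told from no signal, and an interval near 0 for a dim cluster bounds the change of its signal, not of its RNA.

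**Figure D1:**
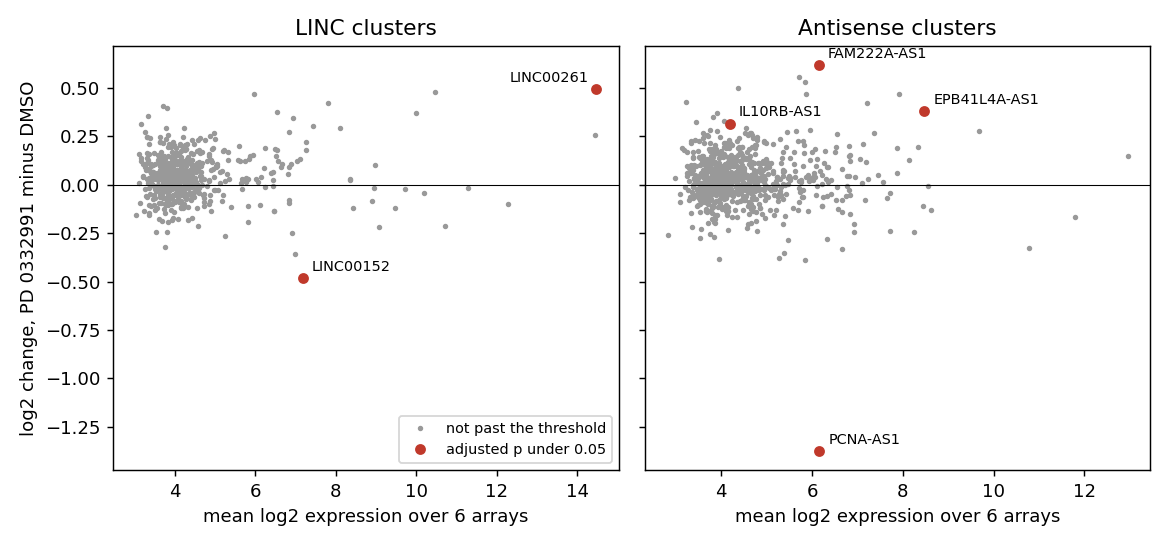
Log2 change of each of 555 LINC clusters (left) and 779 antisense clusters (right), PD 0332991 minus DMSO, against the mean log2 expression over the 6 arrays; each point is 1 cluster, and those past the adjusted p threshold are large and named. Most members lie between 3 and 6 in level and near a change of 0, PCNA-AS1 stands alone at -1.38, and LINC00261 is the brightest at a mean of 14.47.

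More members leaned up than down, without passing the test. No overlap between the 3 PD 0332991 and the 3 DMSO values was seen for 67 LINC clusters that were higher and 16 that were lower, and for 82 antisense clusters that were higher and 27 that were lower. As shares these were 12.1% and 2.88% of LINC clusters and 10.5% and 3.47% of antisense clusters, against 11.6% higher, 7.94% lower and 19.6% either way over every row. The higher shares were thus near the background and the lower shares below it. Unadjusted p-values under 0.05 were found for 31 higher and 5 lower LINC clusters (5.59% and 0.901%) and for 48 higher and 11 lower antisense clusters (6.16% and 1.41%), against 7.42% higher and 5.56% lower over every row. The members' higher shares lay below that background and their lower shares further below it. With every array shifted to a common median the median change was 0.01 for LINC clusters, 0.0022 for antisense clusters and -0.0069 for all rows.

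PCNA-AS1 had by far the greatest change of the members. It is transcribed from within PCNA, the sliding clamp of DNA replication, on the other strand, and has been described as pairing with PCNA messenger RNA. PCNA-AS1 had 5.35, 5.48 and 5.60 on PD 0332991 arrays, against 7.31, 6.57 and 6.67 on DMSO arrays (log2 expression). The groups did not overlap, and DMSO replicate 1 stood above the other DMSO arrays. The cluster averaged 5.48 ± 0.12 with PD 0332991 and 6.85 ± 0.40 with DMSO (SD, n = 3 each), 2.59-fold lower with PD 0332991 (log2 change -1.38 ± 0.20 SE, limma adjusted p = 0.0231). Without DMSO replicate 1 the change was -1.14 (adjusted p = 0.0101), and with any other array left out the adjusted p lay between 0.0509 and 0.104.

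PCNA fell as well. PCNA had 9.99, 9.87 and 10.09 with PD 0332991, against 11.85, 11.94 and 11.79 with DMSO, a log2 change of -1.88 (adjusted p = 0.00012). PCNA-AS1 minus PCNA, as a difference of log2 changes, was 0.50 with a 95% interval from -0.21 to 1.21 (exact permutation p = 0.2, two-sided; the smallest possible with 3 against 3 arrays is 0.1), so a difference between the changes of the strands was not shown. Whether the labelled target kept the strand of its RNA is not given in the sources used here, since the labels name 2 kits. Signal of the antisense cluster and of PCNA, which overlaps it, cannot be told apart without that.

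The other fall was that of LINC00152, known to RefSeq as CYTOR, a cytoplasmic RNA described as promoting growth in several cancers. LINC00152 had 6.95, 6.98 and 6.88 on PD 0332991 arrays, against 7.45, 7.37 and 7.44 on DMSO arrays. The arrays of each group lay close together and the groups did not overlap. The change was -0.48 ± 0.059 (log2, SE), 1.40-fold lower with PD 0332991 (limma adjusted p = 0.0123), and the adjusted p ran from 0.0484 to 0.0665 when single arrays were left out, passing only without PD 0332991 replicate 2. A row that was no member, because the annotation gives it several symbols, RefSeq's current name for LINC00152 among them, had 8.14, 8.15 and 8.06 with PD 0332991, against 8.66, 8.58 and 8.69 with DMSO (log2 change -0.53, adjusted p = 0.0104). CYTOR has a near-identical relative elsewhere on the same chromosome, so the value of LINC00152 is uncertain as that of a single gene.

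LINC00261 rose. It lies beside FOXA2, a pioneer transcription factor of endoderm and prostate epithelium, and has been described as needed for FOXA2 expression during endoderm formation. LINC00261 had 14.77, 14.63 and 14.74 on PD 0332991 arrays, against 14.31, 14.21 and 14.15 on DMSO arrays, 1.41-fold higher (log2 change 0.49 ± 0.071 SE, limma adjusted p = 0.0234). FOXA2 had 10.22, 10.18 and 10.22 with PD 0332991, against 10.55, 10.58 and 10.47 with DMSO, a log2 change of -0.32 (95% interval -0.46 to -0.19, adjusted p = 0.0481). LINC00261 minus FOXA2, as a difference of changes, was 0.82 (95% interval 0.69 to 0.95; p = 0.1 by exact permutation), a pair looked at after its values were seen. The adjusted p of LINC00261 lay between 0.0564 and 0.109 with single arrays left out, that of FOXA2 between 0.101 and 0.186, and with arrays shifted to a common median FOXA2 had 0.057.

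The remaining 3 calls were antisense clusters that rose. FAM222A-AS1, of unknown function, had 6.34, 6.47 and 6.56 with PD 0332991, against 5.70, 5.94 and 5.88 with DMSO, 1.54-fold higher (adjusted p = 0.0238). EPB41L4A-AS1, also called TIGA1 for transcript induced by growth arrest, had 8.74, 8.58 and 8.66 with PD 0332991, against 8.24, 8.32 and 8.29 with DMSO, 1.30-fold higher (adjusted p = 0.0415). IL10RB-AS1, now named as a divergent transcript of the cytokine receptor gene IL10RB, had 4.39, 4.33 and 4.33 with PD 0332991, against 4.06, 4.01 and 4.03 with DMSO, 1.25-fold higher at a signal below the table's median (adjusted p = 0.0424). In each of the 3 the groups did not overlap, and none of the 3 passed when any array was left out, with adjusted p up to 0.0968 for FAM222A-AS1, 0.149 for EPB41L4A-AS1 and 0.173 for IL10RB-AS1. The sense genes did not pass: FAM222A had a log2 change of 0.10 (adjusted p = 0.6), EPB41L4A of 0.04 (adjusted p = 0.857) and IL10RB of 0.25 (adjusted p = 0.131). As differences of changes, FAM222A-AS1 minus FAM222A was 0.52 (95% interval 0.31 to 0.74) and EPB41L4A-AS1 minus EPB41L4A was 0.34 (0.08 to 0.59), while IL10RB-AS1 minus IL10RB was 0.06 with an interval that included 0 (-0.02 to 0.15), each at an exact permutation p of 0.1. With arrays shifted to a common median EPB41L4A-AS1 had an adjusted p of 0.0815 and IL10RB-AS1 of 0.0846.

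**Figure D2:**
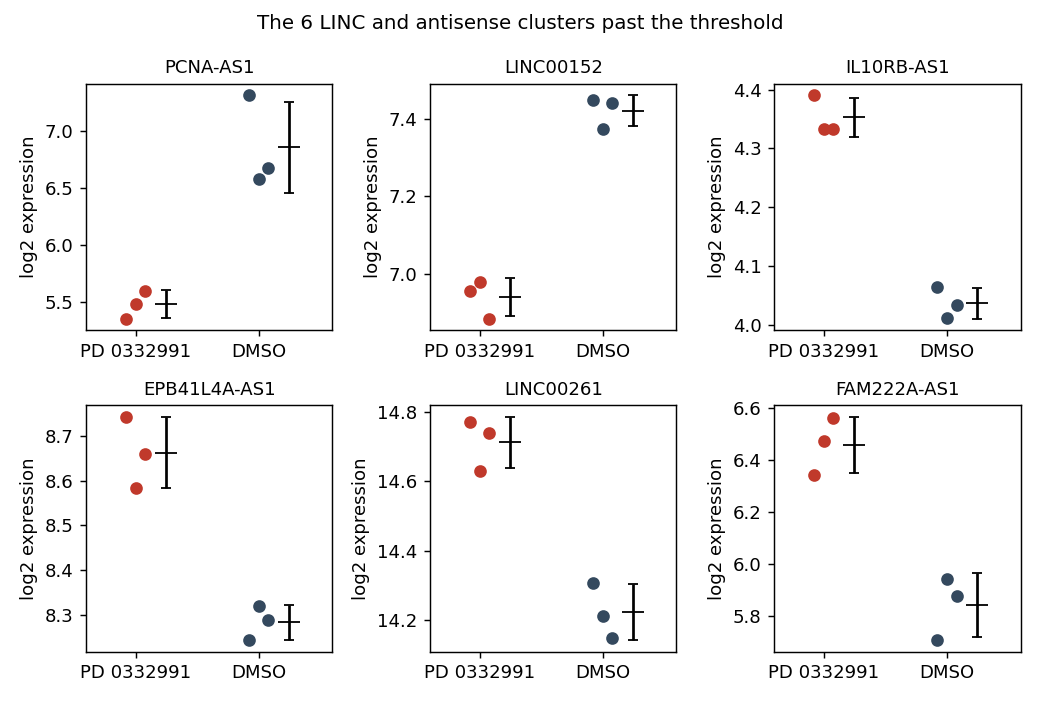
Log2 expression of the 6 members past the threshold on each array, PD 0332991 left of DMSO; points are arrays, and the bar beside them is the mean with its SD (n = 3), with a separate vertical axis for each panel that does not start at 0. PCNA-AS1 and LINC00152 were lower with PD 0332991 and the other 4 higher, and in none of the 6 did the groups overlap.

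Each antisense cluster was set beside its sense gene where the table held a row for it, which gave 698 pairs of 616 sense genes; the other 81 antisense clusters had no sense row with a single symbol. The sense gene passed the threshold in 42 pairs (6.02%), with 35 different sense genes, 22 that fell and 13 that rose. The antisense cluster passed in 1 of these 42 pairs, that of PCNA, which is 2.38%, near the 2.26% of all rows that passed. In the 26 pairs whose sense gene fell, the median log2 change was -0.59 for the sense and -0.03 for the antisense clusters, and 14 antisense changes were below 0 and 12 above. In the 16 pairs whose sense gene rose, the medians were 0.61 and 0.05, and 12 antisense changes were above 0 and 4 below. Leaving out PCNA-AS1, antisense changes in these pairs lay between -0.33 and 0.28. The 95% interval of the antisense minus sense change excluded 0 in 34 of the 42 pairs and included it in 8, among them PCNA, SGO1 and DDX11. The 42 pairs were picked by the sense change on the same arrays, and the median antisense changes were near 0. An interval that excludes 0 is therefore largely set by that choice.

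Some of these pairs have division genes as their sense gene. From the list of 184 genes of DNA replication and mitosis that was used here, 173 had a row, of which 156 fell, none rose and 17 did not pass, with a median 2.48-fold lower with PD 0332991. Over every row 1.43% fell and 0.835% rose. The list was drawn up with earlier results of these data known, so its falls are not an independent result. It included 6 sense genes of antisense clusters (KIF23, PRC1, TMPO, PCNA, SGO1 and DDX11), and all 6 fell. Of their antisense clusters 1 fell, PCNA-AS1, and 5 did not pass, too few to set against the 2.26% of all rows that passed.

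KIF23, a kinesin of the central spindle, fell by 2.79 on the log2 scale, while its antisense cluster did not pass the test. KIF23-AS1 had 4.97, 4.87 and 4.70 on PD 0332991 arrays, against 4.78, 4.87 and 4.78 on DMSO arrays. The groups overlapped and the change was 0.04 (95% interval -0.17 to 0.24, adjusted p = 0.919). KIF23-AS1 minus KIF23, as a difference of changes, was 2.82 (95% interval 2.37 to 3.28; p = 0.1 by exact permutation).

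PRC1, which bundles microtubules at the spindle midzone, fell by 2.78. PRC1-AS1 had 4.45, 4.41 and 4.73 with PD 0332991, against 4.60, 4.71 and 4.60 with DMSO, values that overlapped (change -0.11, 95% interval -0.35 to 0.13, adjusted p = 0.748). The difference of changes between PRC1-AS1 and PRC1 was 2.67 (95% interval 2.46 to 2.87, exact permutation p = 0.1). KIF23-AS1 and PRC1-AS1 both had signals close to the table's median of 4.50, where a low value cannot be told from no signal.

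TMPO, which encodes the lamina-associated polypeptides of the inner nuclear membrane, had 8.99, 8.84 and 8.73 with PD 0332991, against 11.15, 11.03 and 10.89 with DMSO. TMPO-AS1 had 5.95, 5.62 and 5.98 with PD 0332991, against 6.16, 5.93 and 5.87 with DMSO. The sense gene was 4.50-fold lower without overlap, while the antisense values overlapped, with a change of -0.14 (95% interval -0.44 to 0.16, adjusted p = 0.75). TMPO-AS1 minus TMPO was 2.03 (95% interval 1.64 to 2.43, exact permutation p = 0.1). The transcripts start within 1 kb of each other on opposite strands, but their promoter windows share 0 bases.

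SGO1, the shugoshin that guards centromeric cohesion, fell by 1.06, and DDX11, a helicase of sister chromatid cohesion, by 0.56 (adjusted p = 0.0139). DDX11 passed in 1 of the 6 fits that left out an array, with adjusted p up to 0.0728. SGO1-AS1 had 6.37, 6.39 and 6.70 with PD 0332991, against 7.20, 7.04 and 6.22 with DMSO. The DMSO arrays were spread over more than the difference between the groups, and the difference of changes between SGO1-AS1 and SGO1 had an interval that included 0 (0.73, -0.27 to 1.72, exact permutation p = 0.1). DDX11-AS1 had 5.46, 5.26 and 5.26 with PD 0332991, against 5.96, 5.42 and 5.47 with DMSO (change -0.29, adjusted p = 0.523), and DDX11-AS1 minus DDX11 was 0.27 (95% interval -0.37 to 0.92, exact permutation p = 0.4). For both of these pairs the interval allowed anything between equal changes and an antisense change near 0.

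OIP5-AS1 had the highest signal of the antisense clusters whose sense gene passed. It is the conserved cytoplasmic RNA also called cyrano, which binds microRNA miR-7, and OIP5 is a subunit of the complex that loads the centromeric histone CENP-A. OIP5-AS1 had 11.75, 11.73 and 11.64 with PD 0332991, against 11.99, 11.83 and 11.81 with DMSO. These values did not overlap but differed little (change -0.17, 95% interval -0.34 to 0.01, adjusted p = 0.407). OIP5 fell by 0.87 (adjusted p = 0.00768; 0.0507 at the highest with single arrays left out). The interval of the difference between OIP5-AS1 and OIP5 excluded 0.

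**Figure D3:**
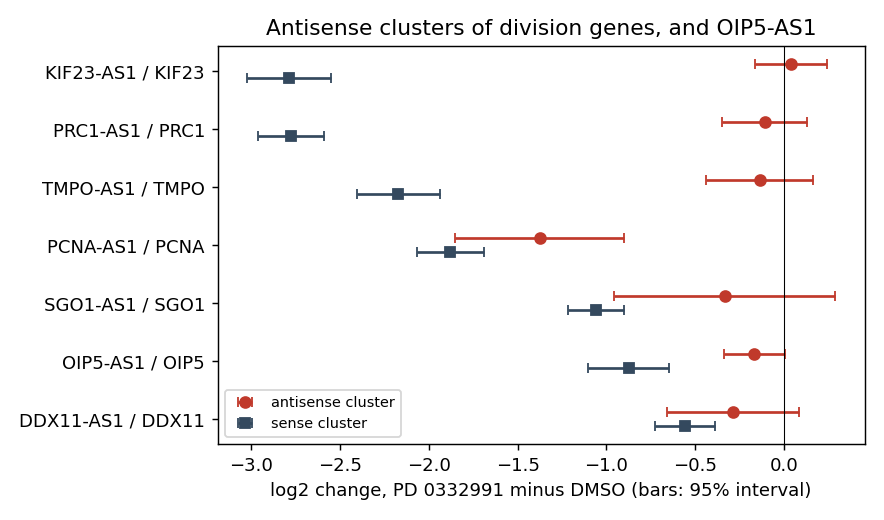
Log2 change, PD 0332991 minus DMSO, of antisense clusters (circles) and their sense genes (squares) for the 6 pairs of the division list and for OIP5, with 95% intervals from limma (n = 3 arrays per group). All 7 sense genes lie left of 0, PCNA-AS1 is the only antisense cluster whose interval does, and the KIF23, PRC1 and TMPO pairs are more than 2 log2 units apart.

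None of the 16 antisense clusters of sense genes that rose passed the threshold, a number too small to read. Over all rows 2.26% passed, and of antisense clusters 0.513%. The examples were chosen after their values were seen. SIDT1, of a family of double-stranded RNA transporters, rose by 0.89, while SIDT1-AS1 had 5.20, 4.85 and 5.39 with PD 0332991, against 5.27, 5.46 and 4.69 with DMSO (change 0.0026, 95% interval -0.54 to 0.55). ARRDC3, an arrestin-domain adaptor, rose by 0.74, and ARRDC3-AS1 had a change of 0.21 (95% interval 0.01 to 0.40, adjusted p = 0.354). SLC7A11, the cystine transporter, rose by 0.59, and SLC7A11-AS1 had a change of 0.10 (95% interval -0.03 to 0.23). RBMS3, an RNA-binding protein gene, rose by 0.69, and its 3 antisense clusters had changes of -0.11 (RBMS3-AS3), -0.01 (RBMS3-AS1) and 0.20 (RBMS3-AS2), none past the threshold. ARRDC3 passed in 1, RBMS3 in 2 and SLC7A11 in 4 of the 6 fits that left out 1 array, and SIDT1 in all 6.

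Across the 698 pairs the changes of antisense and sense clusters had a Pearson correlation of 0.22 and a Spearman correlation of 0.08, and without PCNA the Pearson value was 0.13. The points share the 6 arrays, and 616 sense genes stand for 698 pairs. Start sites of both transcripts were listed in RefSeq for 457 pairs, all on opposite strands. Distances between starts were taken in either direction, so divergent and overlapping pairs were not separated. In the 129 pairs whose starts lie within 1 kb the Pearson correlation was 0.20 and the Spearman correlation 0.14, with 9 sense genes and 0 antisense clusters past the threshold. In the 328 pairs with starts farther apart these were 0.32 and 0.10, or a Pearson value of 0.17 without PCNA, with 20 sense rows and 3 antisense clusters past the threshold. Of all antisense clusters 0.513% passed, against 2.26% of all rows, so the antisense counts are too small to compare. The sign of the change was shared in 381 of the 698 pairs (54.6%).

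**Figure D4:**
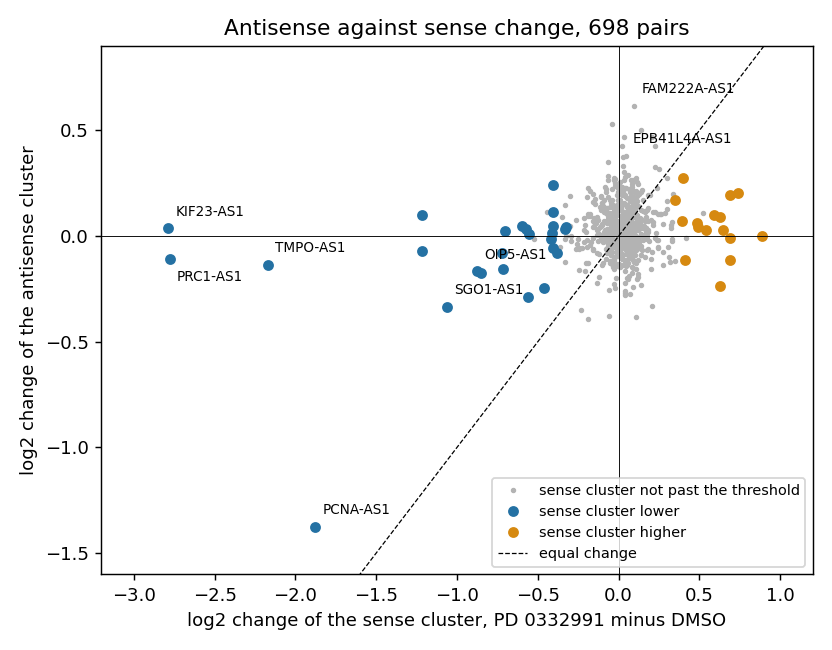
Log2 change of the antisense cluster against that of its sense gene, PD 0332991 minus DMSO, for 698 pairs; blue and orange points are pairs whose sense gene fell or rose past the threshold, and the dashed line marks equal change. Sense changes spread from -2.79 to 0.89 while antisense changes stay between -0.4 and 0.7 except for PCNA-AS1 at -1.38, the point nearest the dashed line among the strong falls.

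LINC clusters were set beside the nearest protein-coding gene with a row, by gene position in RefSeq, which was found for 517 of 555 clusters and named 423 genes. Of these genes 22 passed the threshold, 7 higher and 15 lower, beside 24 LINC clusters, and the LINC cluster passed in 1 of the 24, LINC00261, against 2.26% of all rows, a number too small to read. LINC changes beside these genes ran from -0.26 to 0.49 with a median of 0.05. The next examples were chosen after their values were seen. H2BC11, a replication-dependent histone gene, fell by 3.02 beside LINC00240, which had a change of 0.04 (adjusted p = 0.91). TMPO fell by 2.17 beside LINC02453, which had 0.05 (adjusted p = 0.827), and KPNA2, an importin, fell by 1.34 beside LINC00674, which had 0.10 (adjusted p = 0.639). Across the 517 clusters the Pearson correlation of the changes was 0.05 and the Spearman correlation 0.04.

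A list of 20 members was picked for their known roles, with earlier results of these data known. Of these, 16 genes had a row and 2 passed, PCNA-AS1 and LINC00152. Over all rows 2.26% passed, and of rows with 1 gene symbol 4.35%. CDKN2B-AS1, or ANRIL, which brings Polycomb complexes to the locus of the CDK4 and CDK6 inhibitors, had 4.69, 4.81 and 4.51 with PD 0332991, against 4.77, 4.68 and 4.73 with DMSO. Its groups overlapped (change -0.06, 95% interval -0.27 to 0.16, adjusted p = 0.87). FOXD2-AS1 had a wider interval (change -0.39, -0.93 to 0.15), and LINC00958 had a change of -0.19 and LINC00467 of 0.09. ZEB1-AS1, beside the mesenchymal transcription factor gene ZEB1, had 0.05, HOXA-AS2 of the HOXA cluster 0.03 and LINC00473, a target of cAMP signalling, 0.11. THAP9-AS1 and MCM3AP-AS1 had -0.15 and -0.05, LINC00960 had 0.13, and the 2 clusters of GAS6-AS1 had 0.09 and 0.12; none of these passed the threshold.

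Some genes had several member rows. Of 32 such genes with 66 rows, 4 had rows with identical values on every array, and 25 of the other 28 had changes within 0.25 of each other. The widest gap, 0.38, was that of KCTD21-AS1, whose rows had 0.12 and 0.50. None of the 66 rows passed the threshold, against 0.45% of all members and 2.26% of all rows. That count says little about genes with several rows. Over all members the change ran from -0.14 to 0.23 between the 5th and the 95th percentile. Closeness within 0.25 therefore says little about whether the rows of a gene measure the same RNA.

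How many members passed depended on which rows were tested together. When the fit and the adjustment were limited to the 22685 rows with exactly 1 gene symbol, 30 members passed, 10 LINC clusters (9 higher, 1 lower) and 20 antisense clusters (15 higher, 5 lower), among them the 6 above. That is 1.80% of LINC and 2.57% of antisense clusters, against 11.1% of the rows in that fit, 5.41% higher and 5.65% lower. With only the brightest row of each gene 32 members passed, against 11.3% of the rows fitted. Among the 448 members at or above the table's median level 9 passed in a fit limited to such rows, against 7.26% of the rows fitted. The next clusters were among those added in the fit over rows with 1 gene symbol, and were chosen after their values were seen. LINC00857 had 10.60, 10.78 and 10.70 with PD 0332991, against 10.05, 10.14 and 10.45 with DMSO (change 0.48, adjusted p = 0.0311 in that fit and 0.115 over every row). VPS9D1-AS1 had 7.32, 7.39 and 7.54 with PD 0332991, against 6.90, 7.11 and 6.97 with DMSO (change 0.42, adjusted p = 0.0153 and 0.0731), while its sense gene VPS9D1 had 0.02. In both clusters the groups did not overlap.

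In the fit over rows with 1 symbol both strands passed in 6 pairs out of 93 whose sense gene did. In that fit 11.1% of the rows and 2.57% of antisense clusters passed. Whether the target kept the strand of its RNA is not given in the sources used here, so signals of overlapping strands cannot be told apart. In 5 of the 6 both moved the same way: PCNA and CNOT10 were lower on both strands, and PGM5, IL10RB and LOXL1, a lysyl oxidase, higher on both. The exception was EMC3, a subunit of the complex that inserts membrane proteins in the ER. EMC3-AS1 had 10.64, 10.53 and 10.65 with PD 0332991, against 10.88, 11.02 and 10.92 with DMSO (change -0.33, adjusted p = 0.0134 in that fit and 0.0772 over every row). EMC3 had a change of 0.21 (adjusted p = 0.0274 in that fit and 0.166 over every row). EMC3-AS1 minus EMC3 was -0.54 (95% interval -0.72 to -0.35; p = 0.1 by exact permutation), a pair chosen after its values were seen.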

How the data were processed

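The values deposited by the authors are taken as log2 signals, since they run from 2.04 to 19.93 and no base is named. The submitters' processing notes name Affymetrix Expression Console, without a version; background correction and normalization are not given in the sources used here. The table holds 65535 rows, of which 22685 have 1 gene symbol in the array annotation, 1385 several and 41465 none; genes without a row are not analysed here. Updating symbols through Entrez identifiers changed 0 member symbols, and RefSeq lists 67 members under another name or not at all. Values were used as deposited, with no filter.

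The fit over every row used limma 3.58.1 (R 4.3.3; 1 mean per group, empirical Bayes, two-sided, Benjamini-Hochberg, adjusted p under 0.05), tested on simulated data; 95% intervals use the moderated spread. Differences between clusters were taken per array, with an exact permutation test over arrays and a linear-model interval. The sense gene is the symbol without its -AS ending, by its brightest row. Sequences, positions and gene order came from RefSeq, GRCh38.p14. The members and lists were chosen with earlier results of these data known. Named were the 8 largest rises and falls of each class past the threshold, pairs with both strands past it and members picked for their role. Sense genes, every pair of the division list and genes with several rows were named too. The text marks any others. Alternatives tried were array scaling, a level filter, the rows fitted, a level-dependent prior, the replicate number as a block, membership by other names, and each array left out.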

Additional observations from a re-analysis of the deposited data

Results flagged for a closer look

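Rows with several gene symbols were outside the comparisons above, and 47 of them carry a symbol of the LINC or antisense form beside another. Of these, 2 passed the threshold in the fit over every row, against 2.26% of all rows. A row with a LINC symbol and that of a protein-coding gene was lower with PD 0332991, at 10.91 ± 0.062 against 12.32 ± 0.089 with DMSO (log2 expression, SD, n = 3 each; log2 change -1.41, limma adjusted p = 0.000261). A row with 2 LINC symbols was higher, at 10.69 ± 0.18 with PD 0332991 against 10.03 ± 0.019 with DMSO (log2 change 0.66, adjusted p = 0.023). Another row with the same 2 symbols had a log2 change of -0.11 (limma adjusted p = 0.812). Groups of 3 arrays were too small to look for single outlying arrays.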

How the results depend on the processing

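The members past the threshold, 2 LINC and 4 antisense clusters, changed with the rows fitted: 10 and 20 in the fit over rows with 1 gene symbol, 11 and 21 with the brightest row per gene, and 2 and 7 among rows at or above the median level, against 11.1%, 11.3% and 7.26% of all rows in those fits. With arrays shifted to a common median 2 antisense clusters passed. With 1 array left out 0 or 1 LINC and 0 or 1 antisense clusters passed, and with the replicate number as a block 0 and 0 did (limma; in the fit as reported 31 LINC clusters were higher and 5 lower at an unadjusted p under 0.05, and 48 and 11 antisense clusters, or 5.59%, 0.901%, 6.16% and 1.41%, against 7.42% higher and 5.56% lower over every row); all 6 passed in the fit over rows with 1 symbol and with a level-dependent prior. The share of all rows that passed with the block or with an array left out is not given here. Lower counts in those fits, also those of pairs below, therefore cannot be told from fewer calls over the whole table. Same-numbered arrays of the 2 groups did not deviate together (correlations of -0.0041, -0.0233 and 0.0229). No pairing was seen, but these correlations cannot exclude a shared culture or batch. Of members that RefSeq lists under their own symbol, an alternative added after seeing the data, 1 LINC cluster passed. Pairs with both strands past the threshold numbered 1, against 2 among brighter rows, 6 over rows with 1 symbol, 6 with the brightest row, 0 with the block and 0 or 1 with an array left out. Pairs with only the sense gene past it numbered 41, against 87 over rows with 1 symbol, 85 with the brightest row, 12 with the block and 9 to 20 with an array left out. Differences between antisense and sense changes kept their direction with any array left out, from 0.32 to 0.74 for PCNA-AS1, 1.91 to 2.14 for TMPO-AS1, 2.73 to 2.96 for KIF23-AS1, 2.61 to 2.71 for PRC1-AS1, 0.39 to 0.92 for SGO1-AS1, 0.60 to 0.78 for OIP5-AS1 and 0.13 to 0.50 for DDX11-AS1. CDKN2B-AS1, which did not pass, had changes from -0.13 to 0.023 with an array left out, above 0 only without PD 0332991 replicate 3. The cause of these differences was not tested. Dim signal limits what can be said of most members.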
